A study of Mus musculus with 39 samples.

Results

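Ccn1, Ccn2, Amotl2, Ankrd1 and Thbs1, 5 genes known for matricellular signalling or as targets of the coactivator YAP, were followed in liver, bone marrow and spleen of mice kept under hypoxia. They were chosen by symbol, as every probe set that the array annotation pairs with exactly 1 of the 5 symbols, and with their hypoxia minus control differences already known. That gave 10 probe sets of the 34945 that carry 1 gene symbol, and 5 of 18193 genes. Ccn1 has 4 probe sets, Ankrd1 and Thbs1 have 2 each, and Ccn2 and Amotl2 have 1 each. One further probe set, annotated to both Pald1 and Thbs1, was left out. Because the hypoxia contrast chose the genes, their differences in it are given as descriptions without a test.

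The arrays measured RNA of B6C3F1 mice, a hybrid laboratory strain, after 2 hours of hypoxia or of the control condition that the titles call vehicle, for which the labels name no substance. Liver and spleen have 8 control and 8 hypoxia arrays each, and bone marrow has 3 control and 4 hypoxia arrays, 39 in all. The labels give neither the age of the mice nor the oxygen level. They do not say that arrays of a group came from separate mice, or whether the 3 tissues came from the same ones, so the spread between arrays may be in part technical. All animals were killed under ketamine and acepromazine anesthesia. Marrow came from the humerus with a bone marrow RNA kit, and the other tissues were processed with Qiagen mini columns. The median log2 level of an array lay between 5.21 and 5.33 in liver, 6.22 and 6.29 in marrow and 6.16 and 6.20 in spleen, so levels are compared within a tissue and an order across tissues is a description.

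The markers of hepatocytes averaged 13.57 ± 0.02 (SD, n = 8) on the log2 intensity scale in control liver, against 5.30 in control marrow and 5.28 in control spleen. Arrays of a tissue correlated at 0.962 or more. In control liver, replicates 5 to 8 differed from replicates 1 to 4 in 3855 of 12735 genes tested, 30.3 percent, at an adjusted p under 0.05 (limma), so values of members are also given within these 2 ranges of replicate numbers. The labels name no batch. These are whole tissues, in which a larger share of a cell type and more RNA per cell cannot be told apart.

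Ccn1 (also called Cyr61) and Ccn2 (also called Ctgf) are secreted matricellular proteins: they sit in the matrix, bind integrins, heparan sulfate proteoglycans and growth factors, and signal to cells rather than build structure. Both are textbook targets of YAP and TAZ, coactivators that the Hippo kinases hold in the cytoplasm and that act on DNA through TEAD proteins when cells spread, stretch or meet serum lipids. Amotl2 is an angiomotin family protein that binds YAP and is itself a YAP target, Ankrd1 is a nuclear ankyrin repeat protein of stretched muscle and a common YAP reporter, and Thbs1 encodes thrombospondin 1, a matricellular protein stored in platelet granules. In liver, CCN proteins are known from stellate cells and bile duct cells, and in marrow from stromal and endothelial cells.

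The 250 bases before the annotated start were read from RefSeq (GRCm38.p6) for the 3 members with an entry, to show where the core of the TEAD binding site lies in these genes. The sequences run 5′ to 3′ on the gene's strand, and capitals mark GGAATG or its other-strand form CATTCC. The windows are chr3:145649986-145650235 on the minus strand for Ccn1, chr9:102717554-102717803 on the plus strand for Amotl2 and chr19:36119845-36120094 on the minus strand for Ankrd1.
Ccn1: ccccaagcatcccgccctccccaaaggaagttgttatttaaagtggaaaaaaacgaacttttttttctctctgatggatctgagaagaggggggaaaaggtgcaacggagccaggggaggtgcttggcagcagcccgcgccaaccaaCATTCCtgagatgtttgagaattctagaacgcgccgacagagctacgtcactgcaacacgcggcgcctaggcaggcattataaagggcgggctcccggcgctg
Amotl2: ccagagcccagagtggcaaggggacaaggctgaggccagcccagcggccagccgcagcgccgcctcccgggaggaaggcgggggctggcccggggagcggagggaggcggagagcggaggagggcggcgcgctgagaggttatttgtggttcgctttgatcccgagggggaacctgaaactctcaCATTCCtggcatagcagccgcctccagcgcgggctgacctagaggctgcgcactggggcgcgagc
Ankrd1: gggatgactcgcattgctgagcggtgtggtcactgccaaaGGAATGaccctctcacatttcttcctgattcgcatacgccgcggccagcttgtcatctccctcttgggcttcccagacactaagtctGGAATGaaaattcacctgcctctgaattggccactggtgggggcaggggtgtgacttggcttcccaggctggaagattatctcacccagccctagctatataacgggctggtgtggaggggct
The core stood at bases -103 to -98 of Ccn1 and -65 to -60 of Amotl2, both on the other strand, and at -210 to -205 and -123 to -118 of Ankrd1 on the gene's strand, counted from the start. It was found on either strand in 12.6 percent of all 32851 RefSeq windows of this length. The same search found TATAAA at -25 to -20 of Ccn1 (12.4 percent of windows) and TGACG, part of the site of CREB and ATF proteins, at -58 to -54 of Ccn1 on the other strand (17.8 percent). GCGTG, one form of the hypoxia response element core, stood at -47 to -43 of Ccn1 on the other strand (28.2 percent), and the other form, ACGTG (16.6 percent), in none of the 3 windows. TGANTCA (6.75 percent), TGACGTCA (1.55 percent) and the CArG box that serum response factor binds (1.47 percent) were in none of them. These are matches of letters, and binding was not measured.

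Ccn1 stood far higher in hypoxia marrow than in control marrow on all 4 of its probe sets. On its brightest probe set the 3 control marrows measured 7.28, 7.12 and 6.29 on the log2 intensity scale. The 4 hypoxia marrows measured 10.36, 9.94, 10.28 and 9.85. The lowest hypoxia marrow was thus above the highest control marrow by more than the whole spread of either group. The means were 6.90 ± 0.53 (SD, n = 3) and 10.11 ± 0.25 (SD, n = 4), a difference of 3.21 on the log2 scale or 9.25-fold in intensity.

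The second brightest gave 5.85, 5.44 and 6.16 in control marrow and 9.83, 9.23, 9.62 and 9.22 in hypoxia marrow, a 12.6-fold difference of means. The array maker's suffix for the brightest set marks probes that can also match other transcripts, and that of the second marks transcripts of 1 gene. The 2 other Ccn1 probe sets have means over all arrays of a tissue below the dim limit, the 30th percentile of gene levels there (log2 5.6 in marrow). Their control marrows lie below that limit, so their folds give no size of the change. One of them went from 5.05, 4.82 and 4.77 in control marrow to 5.96, 5.77, 6.18 and 6.03 in hypoxia marrow, 2.15-fold. The other went from 4.61, 5.11 and 4.68 to 6.01, 5.97, 6.42 and 6.05, 2.49-fold. None of the 4 probe sets overlapped between the 2 marrow groups.

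In liver and spleen the same gene differed little. On the brightest probe set, control livers ran from 6.10 through a median of 6.34 to 6.80 and hypoxia livers from 6.15 through 6.53 to 7.12, a difference of means of 0.17. Control spleens ran from 6.13 through 6.49 to 6.97 and hypoxia spleens from 6.53 through 6.79 to 7.16, a difference of 0.30, with 3 of 8 hypoxia spleens above every control. Both pairs of groups overlapped. The spleen difference was 0.56 within replicates 1 to 4, where the groups did not overlap (6.13 to 6.45 against 6.65 to 7.07), and 0.04 within replicates 5 to 8. The share of all genes separated with 4 arrays against 4 was not computed. Separation within a replicate range is therefore a description, here and below. On the dim probe sets the spleen difference had the other sign, -0.33 and -0.42, and 1 control spleen, replicate 5, stood at 6.17 on the dim probe set with the -0.42 difference, against 4.98 or less in the other controls.

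**Figure D1:**
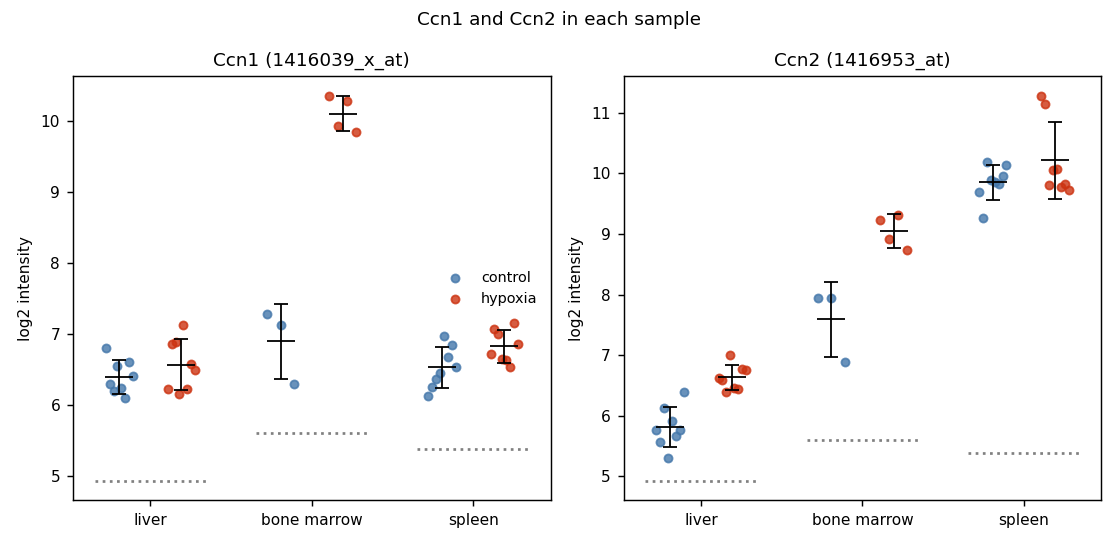
Log2 intensity of Ccn1 (brightest probe set) and Ccn2 in every array of liver, bone marrow and spleen, with control arrays in blue and hypoxia arrays in red. Bars are the mean ± SD and dotted lines the dim limit of the tissue; the 4 hypoxia marrows stand at 9.85 to 10.36 for Ccn1, above all 3 control marrows at 6.29 to 7.28.

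Ccn2, the close relative of Ccn1, also stood higher in hypoxia marrow, by less. Its only probe set measured 7.94, 7.95 and 6.88 in control marrow and 9.23, 8.91, 9.32 and 8.73 in hypoxia marrow. The groups did not overlap. The means were 7.59 ± 0.61 (SD, n = 3) and 9.05 ± 0.28 (SD, n = 4), a 2.75-fold difference of intensity. The control marrow with the lowest Ccn2, replicate 3, was also the lowest for Ccn1 on its brightest probe set. Without each marrow array in turn the log2 difference ran from 1.11 to 1.64 for Ccn2 and from 2.91 to 3.40 for Ccn1.

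In liver, Ccn2 ran from 5.31 through a median of 5.76 to 6.39 in controls and from 6.39 through 6.61 to 7.01 under hypoxia. Above every control liver stood 7 of 8 hypoxia livers, and the difference of means was 0.82 on the log2 scale, 1.77-fold. It was 0.96 within replicates 1 to 4 and 0.68 within replicates 5 to 8, and in neither range did the groups overlap. The conditions were thus separated in liver within both ranges for Ccn2, and in neither range for Ccn1.

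In spleen, Ccn2 was highest of the 3 tissues in controls, from 9.26 through 9.87 to 10.19, and ran from 9.73 through 9.94 to 11.28 under hypoxia. The groups overlapped and the difference of means was 0.36. Only hypoxia spleens 1 and 2, at 11.28 and 11.15, stood above every control. The other 6 hypoxia spleens lay within the control range, and the difference was 0.82 within replicates 1 to 4 and -0.09 within replicates 5 to 8.

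Of the 5 members, 2 (Ccn1 and Ccn2) were higher and 1 (Amotl2) lower in hypoxia marrow without overlap of the groups. With 3 arrays against 4 such separation is common: 7.77 percent of all genes tested in marrow were higher and 12.7 percent lower without overlap. In liver 1 member (Amotl2) was lower without overlap, against 1.82 percent of genes, and none was higher, against 1.02 percent. In spleen none was separated either way, against 1.19 percent of genes higher and 3.49 percent lower. The median difference over the 5 members was 0.02 in marrow, 0.04 in liver and 0.30 in spleen, against -0.01, -0.03 and -0.01 over all genes tested. Since this contrast chose the members, these counts support nothing further. The dim limit was passed by 3 members in liver and 4 in marrow and in spleen.

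The mean of the marrow stroma markers, though not every marker, was higher in the hypoxia marrows, as Ccn1 and Ccn2 were. The mean log2 level of 15 genes of stromal, stellate and osteoblast lineage cells was 9.22, 9.29 and 9.45 in the control marrows and 9.60, 9.57, 9.53 and 9.54 in the hypoxia marrows. The groups did not overlap, which is common with 3 arrays against 4 as given above, and the means differed by far less than those of Ccn1 (9.32 against 9.56). Among controls the stromal level was highest in replicate 3, which was lowest for Ccn2 and for the brightest Ccn1 probe set. Of the 14 stromal genes tested 3 were called higher and 0 lower, 21.4 percent against 2.76 percent of all genes higher and 7.69 percent called either way, and with 1 marrow array left out 1 to 4 were called (1 without control 1 or 2 or hypoxia 2 or 3): Lum by 0.66 ± 0.13 (SE; limma adjusted p = 0.0184), Dcn by 0.59 (0.0292) and Col3a1 by 0.57 (0.0123), which encode proteoglycans and a collagen of the matrix. At an unadjusted p under 0.05 (limma) 6 of the 14 stromal genes were higher and 1 lower, and the differences ran from -0.17 to 0.66. Muscle markers, 12 genes, averaged 6.81, 6.61 and 6.08 in control marrow and 6.73, 7.10, 6.89 and 6.87 in hypoxia marrow. They were lowest in control marrow 3, as were Ccn2 and the brightest Ccn1 probe set, while the second Ccn1 probe set was highest among controls there. Of the muscle markers 0 of 9 tested were called (limma), with 5 at an unadjusted p under 0.05. Endothelial markers ran from 7.75 to 8.12 in control and from 7.95 to 8.19 in hypoxia marrow, with 0 of 15 called and 2 at an unadjusted p under 0.05. The part of these cell types in the Ccn1 and Ccn2 values was not tested.

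Amotl2 went the other way. In liver its only probe set ran from 8.16 through 8.34 to 8.60 in controls and from 7.67 through 7.90 to 8.15 under hypoxia. The groups did not overlap, and hypoxia was lower by 1.35-fold (8.35 ± 0.14 against 7.91 ± 0.19, SD, n = 8 each). Within replicates 1 to 4 the log2 difference was -0.47 and within replicates 5 to 8 it was -0.41, again without overlap in either. Within each replicate range the conditions were separated for both Ccn2 and Amotl2, in opposite directions, a description without a share over all genes. Over all livers they were separated for Amotl2 only.

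In marrow, Amotl2 measured 8.04, 7.96 and 7.98 in controls and 7.96, 7.88, 7.82 and 7.90 under hypoxia. The groups touched without overlapping, and the difference of -0.10 is small beside those of Ccn1 and Ccn2. In spleen, controls ran from 8.04 through 8.29 to 8.66 and hypoxia from 7.80 through 7.98 to 8.38, a difference of -0.26 with 5 of 8 hypoxia spleens below every control. Within replicates 1 to 4 the spleen difference was 0.03 and within replicates 5 to 8 it was -0.56 without overlap. Markers of endothelial cells, in which Amotl2 is best known, ran from 7.07 to 7.66 in control liver and 7.15 to 7.37 in hypoxia liver. Of these 15 markers 1 was called lower, Tie1 by 0.42 (limma adjusted p = 0.0209). That is 6.67 percent, against 7.22 percent of all liver genes lower and 11.1 percent either way, so the share is not above the background. The part of endothelial cells in the Amotl2 value was not tested.

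Ankrd1 lay below the dim limit of every tissue on both probe sets and is described only for completeness. On the one that is brighter in marrow and spleen it averaged 3.77 ± 0.16 in control and 3.56 ± 0.18 in hypoxia liver (SD, n = 8 each). In marrow it measured 4.48 ± 0.05 (SD, n = 3) and 4.47 ± 0.04 (SD, n = 4), and in spleen 4.06 ± 0.15 and 3.96 ± 0.16 (SD, n = 8 each). Its groups overlapped in all 3 tissues. The other probe set differed by -0.17 in liver, 0.10 in marrow and -0.03 in spleen.

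Thbs1 was bright in marrow and did not differ between the conditions there by more than the spread. Its brighter probe set measured 11.38, 11.31 and 11.50 in control marrow and 11.43, 11.64, 11.32 and 11.27 in hypoxia marrow, a difference of 0.02. The dimmer probe set gave the same difference, 0.02. The megakaryocyte and platelet markers ran from 11.32 to 11.51 in control and from 11.13 to 11.56 in hypoxia marrow, and 0 of 13 were called (limma), also 0 at an unadjusted p under 0.05. In liver both probe sets were below the dim limit (3.94 ± 0.17 in control and 3.99 ± 0.12 under hypoxia for the brighter one, SD, n = 8 each), so Thbs1 was not measured there above the level of dim genes.

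In spleen the brighter Thbs1 probe set ran from 8.44 through 8.75 to 9.39 in controls and from 8.48 through 9.10 to 10.44 under hypoxia. The groups overlapped, the difference was 0.42, and hypoxia spleens 3 and 4, at 9.88 and 10.44, stood above every control. The other 6 hypoxia spleens were within the control range. The dimmer probe set differed by 0.44. On it hypoxia spleen 6, at 8.45 against at most 8.41 in controls, also stood above every control. Thus the spleens above every control for Thbs1 (3 and 4, and 6 on the dimmer probe set) were not the 2 for Ccn2 (1 and 2).

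**Figure D2:**
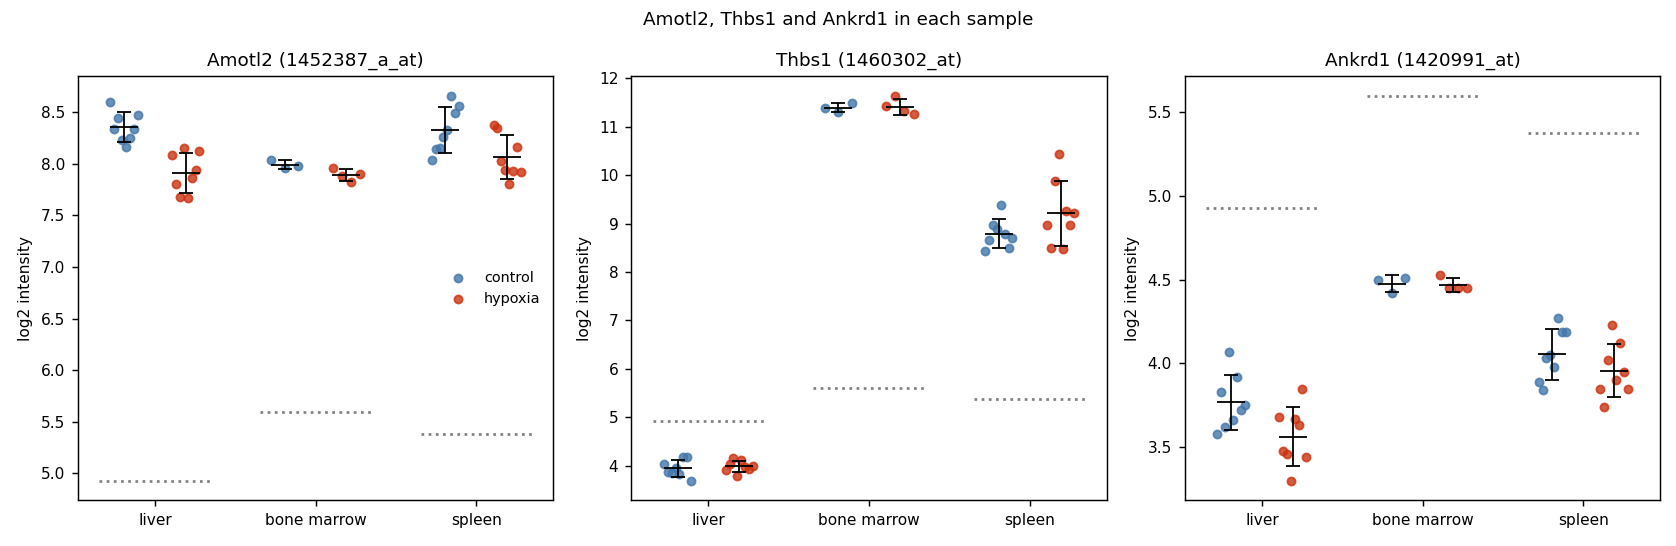
Log2 intensity of Amotl2, Thbs1 and Ankrd1 in every array by tissue, with control arrays in blue and hypoxia arrays in red. Bars are the mean ± SD and dotted lines the dim limit of the tissue; Amotl2 in liver lies at 8.16 to 8.60 in controls and 7.67 to 8.15 under hypoxia, and Ankrd1 lies below the limit in every tissue.

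The 2 spleens highest in Thbs1 were also those with the most platelet marker signal. The 13 megakaryocyte and platelet markers averaged between 9 and 9.51 in control spleens. In hypoxia spleens 1 to 8 they averaged 9.46, 9.23, 10.14, 10.31, 9.30, 9.66, 9.40 and 9.71. Over all 16 spleens the Thbs1 level and the mean marker level correlated with Pearson's r = 0.944 and Spearman's rho = 0.885, and within the 8 hypoxia spleens r was 0.984. Within replicates 1 to 4 and 5 to 8 it was 0.983 and 0.801, and without the 2 arrays farthest from the median, hypoxia spleens 3 and 4, it was 0.816. These values carry no p, since they hold the hypoxia values that chose Thbs1. Within the 8 control spleens r was 0.722 (two-sided exact permutation p = 0.0359) and rho 0.857 (exact p = 0.0107). Adjusted over this relation and that of Ccn2 below, the exact p of r is 0.0718, which does not pass the threshold. Without control spleens 1 and 2, the farthest from the median, r was 0.608 (exact p = 0.224) and rho 0.714 (exact p = 0.136). With only 6 arrays left, these values do not decide whether the relation rests on those 2 spleens. Neutrophil markers averaged 11.76 and 11.17 in hypoxia spleens 3 and 4 and 11.65 in hypoxia spleen 6. In spleen 6 Thbs1 was within the control range on the brighter probe set (9.25). On the dimmer one it was above that range (8.45 against at most 8.41). Of the 13 platelet markers 0 were called in spleen (limma), or 0 to 3 with 1 array left out, with 7 higher at an unadjusted p under 0.05. Of other lists in spleen, 2 of 13 monocyte and macrophage markers were called higher (15.4 percent) and 2 of 10 B and T lymphocyte markers lower (20 percent). Of all genes 19.4 percent were called either way, 6.83 percent higher and 12.6 percent lower. With 1 array left out in turn the counts of these 2 other lists ran from 1 to 6 and from 1 to 2. Vwf is in both the platelet and the endothelial list, and Itga2b and Itgb3 are also counted among receptors below.

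For Ccn2 the markers set beside it were those of endothelial cells, 15 genes. They averaged 8.29 to 8.67 in control spleens and 9.02, 8.83, 8.86 and 8.94 in hypoxia spleens 1 to 4, against 8.36 to 8.58 in hypoxia spleens 5 to 8. Over 16 spleens r was 0.651 and rho 0.456, given without a p for the same reason. Without hypoxia spleens 1 and 4, the farthest from the median, r was 0.516, and without hypoxia spleen 1 alone 0.479. Within the hypoxia spleens it was 0.59, within replicates 1 to 4 0.713 and within replicates 5 to 8 -0.397, so the relation did not hold in the latter. Within the 8 control spleens r was 0.656 (two-sided exact permutation p = 0.109, adjusted 0.109) and rho 0.333 (exact p = 0.428), and without control spleens 2 and 8 r was 0.0578 (exact p = 0.922). Both relations were chosen after their values were seen. The part of these cell types in the hypoxia differences was not tested.

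**Figure D3:**
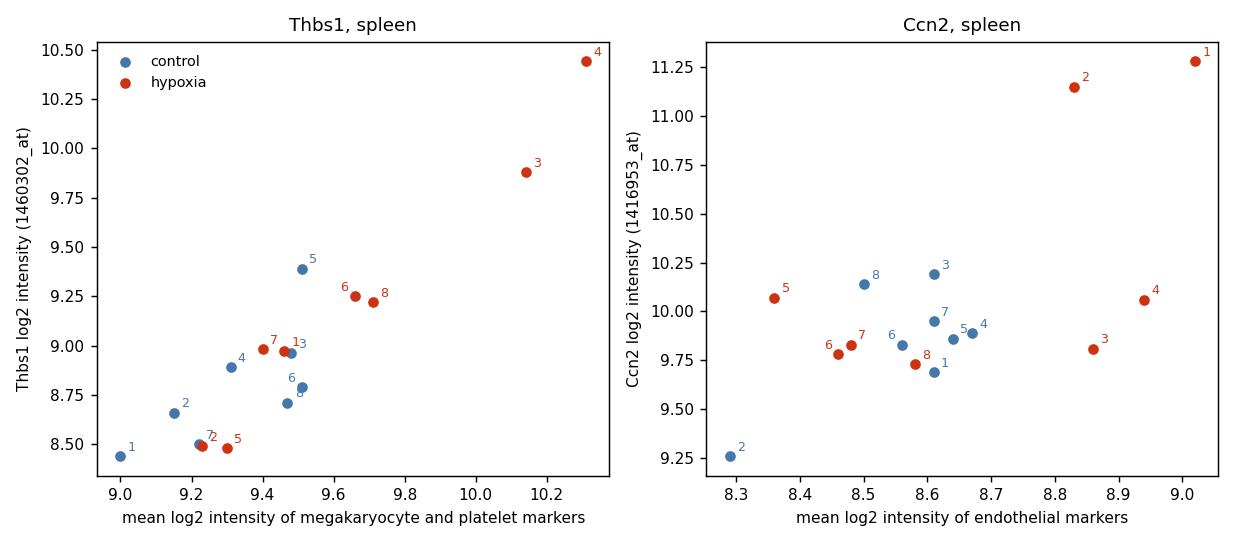
Thbs1 against the mean log2 intensity of 13 megakaryocyte and platelet markers (left) and Ccn2 against that of 15 endothelial markers (right) in 16 spleen arrays, with control in blue, hypoxia in red and the replicate number at each point. Hypoxia spleens 3 and 4 are highest on both axes on the left, and hypoxia spleens 1 and 2 have the highest Ccn2 on the right.

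**Figure D4:**
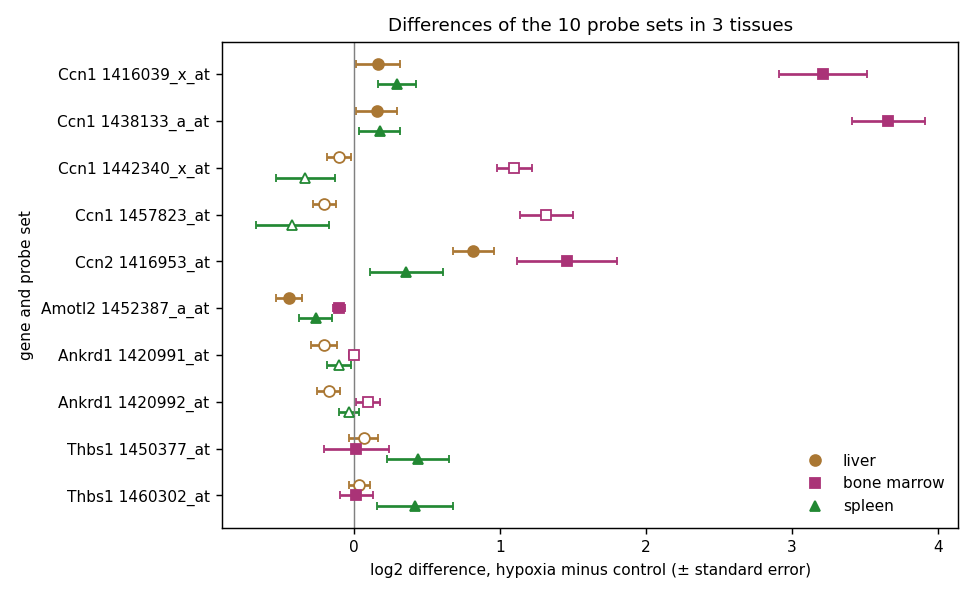
Log2 difference, hypoxia minus control, for each of the 10 probe sets in liver, bone marrow and spleen, with bars for ± 1 standard error and open symbols where the probe set is below the dim limit. The 4 Ccn1 probe sets are at 1.10 to 3.66 in marrow and between -0.42 and 0.30 in liver and spleen.

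A contrast that did not choose the members is that of control arrays alone, replicates 5 to 8 against 1 to 4. In control liver the 3 members above the dim limit did not pass the threshold: Ccn2 differed by 0.25 ± 0.19 (SE; limma adjusted p = 0.333), Ccn1 by -0.12 ± 0.14 (0.559) and Amotl2 by -0.10 ± 0.10 (0.471), while 10 percent of all genes were called higher and 20.3 percent lower. In control spleen no gene of 12735 was called (0 percent) and 3211 had an unadjusted p under 0.05. Ccn1 was higher in replicates 5 to 8 by 0.46 ± 0.11 (6.76 ± 0.19 against 6.30 ± 0.14, SD, n = 4 each; limma adjusted p = 0.0892), and Amotl2 by 0.36 ± 0.09 (8.51 ± 0.14 against 8.15 ± 0.09; limma adjusted p = 0.0892). Ccn2 differed by 0.18 ± 0.17 (0.516) and Thbs1 by 0.11 ± 0.19 (0.73). Without control spleen 5, 1273 genes were called and the adjusted p of Amotl2 was 0.0261. The Ccn1 means of the 2 control ranges were thus 0.46 apart, against 0.30 between hypoxia and control spleens, and the former did not pass the threshold.

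The genes most like Ccn1 over the 39 arrays, by Pearson's r of log2 level minus the control mean of the tissue, were Pmp22 (0.766), Adam33 (0.728), Rab5c (0.722), Wnt4 (0.713) and Per1 (0.683), of 11073 genes compared. These r describe arrays that share tissue and condition and carry no p, and since the genes were picked for following Ccn1 over the same arrays their hypoxia differences are given without a test. Pmp22, a membrane protein of myelin and other cells, differed by 0.96 in marrow, 0.07 in liver and -0.09 in spleen. In marrow Adam33, a membrane metalloprotease, differed by 0.64, Rab5c by 0.94 and Wnt4 by 0.62. Per1, a clock gene, differed by 2.72 in marrow, 1.29 in liver and 1.62 in spleen.

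The genes most like Thbs1 were Itga2b (0.844), Gp5 (0.833), Selp (0.826), Tmem40 and Mrvi1 (both 0.814), of 11074. The liver arrays are among those compared, although Thbs1 itself was below the dim limit there. Itga2b and Gp5 encode platelet surface receptors and are in the platelet list above, and Selp encodes P-selectin of platelet granules. Picked in the same way, they too get no test: in spleen Selp differed by 0.66, Itga2b by 0.31 and Gp5 by 0.42 between hypoxia and control.

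Other genes of the pathway, without the 5 members, were counted from the fit of all genes. Of 25 YAP, TAZ and TEAD target genes 24 had a probe set. In marrow 20 were tested, of which 3 were higher and 0 lower, 15 percent against 7.69 percent of all genes (2.76 percent higher and 4.92 percent lower). They were Crim1, a membrane protein that binds BMPs, by 0.57 ± 0.10 (SE; limma adjusted p = 0.0145), Ccdc80, a matrix protein, by 0.35 ± 0.08 (0.0359) and Asap1, a regulator of Arf proteins, by 0.22 ± 0.05 (0.0384). All 3 are far below the 3.21 of Ccn1. The calls were fragile: 0 were left without hypoxia marrow 2, 1 or 2 without any other single marrow array, and 0 with the mean of a gene's probe sets. Nuak2 (0.28), Edn1 (0.16) and Axl (0.16) were not called. The list's median was 0.09 against -0.01 for all genes.

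In liver 1 of 19 tested targets was higher and 2 were lower, 15.8 percent against 11.1 percent of all genes (3.88 percent higher and 7.22 percent lower). With the replicate number as a block, which joins same-numbered liver arrays, 3 of 19 were again called. Of all genes 18.7 percent were then called (5.87 percent higher and 12.9 percent lower), so the list stands above the background in one fit and below it in the other. Gadd45b, a stress response protein, was higher by 1.82 ± 0.15 (limma adjusted p = 9.04e-08). Nuak2, a kinase of the AMPK family, fell from 8.05 ± 0.28 to 6.90 ± 0.38 (SD, n = 8 each), a difference of -1.15 ± 0.15 (2.76e-05). Ajuba, a LIM protein that restrains the LATS kinases, differed by -0.43 ± 0.09 (0.00397), and by -0.27 within replicates 5 to 8, where it was not called (adjusted p = 0.161). Neutrophil markers averaged 5.17 to 5.39 in control livers and 6.52, 6.90, 6.37 and 6.55 in hypoxia livers 3, 6, 7 and 8, against 5.11 to 5.73 in the other 4. Of 9 neutrophil markers tested in liver 4 were called higher, 44.4 percent, and their part in the liver list values was not tested. In spleen 1 of 20 was higher and 3 were lower, 20 percent against 19.4 percent of all genes (6.83 percent higher and 12.6 percent lower), so the share is near the background. The lower ones were Gadd45b by 0.70 ± 0.12 (0.000409), Ajuba by 0.58 ± 0.11 (0.00105) and Lats2, a Hippo kinase, by 0.24 ± 0.05 (0.00255). Asap1, the higher one and outside the naming rule, differed by 0.50 ± 0.12 (0.0075). Lats2 turned to a difference of 0.02 (adjusted p = 0.814) with the mean of its probe sets. Within spleen replicates 1 to 4 none of this list was called and within 5 to 8, 12 were (2 higher and 10 lower). Of all genes, 482 of 12735 were called within 1 to 4. The share of all genes called within 5 to 8 is not given, so the 12 are a description. The 15 stromal markers averaged 8.9, 8.79, 8.61 and 8.64 in control spleens 5 to 8. In hypoxia spleens 5 to 8 they averaged 8.27, 8.23, 8.21 and 8.28. In spleens 1 to 4 they averaged 8.42, 8.21, 8.46 and 8.77 in controls and 8.59, 8.79, 8.47 and 8.21 under hypoxia. The part of these cells in the counts was not tested.

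**Figure D5:**
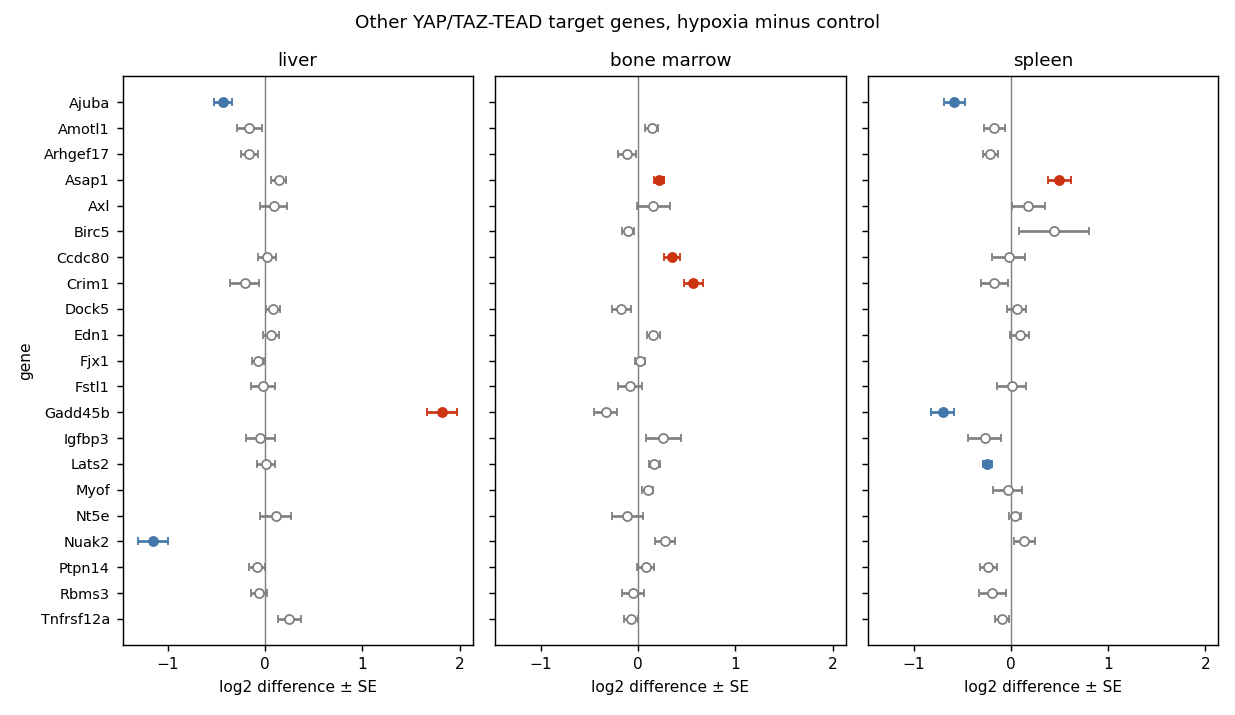
Log2 difference, hypoxia minus control, of the YAP, TAZ and TEAD target genes other than the 5 members in liver, bone marrow and spleen, with bars for ± 1 standard error. Filled red marks genes called higher and filled blue genes called lower at adjusted p under 0.05 (limma); Gadd45b is at 1.82 in liver and -0.70 in spleen.

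The interaction of tissue and condition was tested for the named list genes, over all 39 arrays. The response of Gadd45b was larger in liver than in spleen by 2.51 (limma adjusted p = 1.7e-12) and than in marrow by 2.15 (the marrow minus liver value is -2.15, 9.93e-08). That of Nuak2 was lower in liver than in spleen (-1.30, 4.07e-06) and higher in marrow than in liver (1.43, 0.00014). Over all genes, 9.84 percent differed in response between liver and spleen, 2.76 percent between marrow and liver and 0.272 percent between marrow and spleen.

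The Hippo kinases, adaptors and effectors had 24 genes with a probe set. In marrow 1 of 20 tested was lower (Mob1a, an activator of the LATS kinases, by 0.27 ± 0.07, limma adjusted p = 0.0458), a share of 5 percent against 7.69 percent of all genes. The Mob1a call in marrow was lost without any single array other than control marrow 2. In liver 0 of 22 were called (limma; 1 higher and 1 lower at an unadjusted p under 0.05), against 11.1 percent of all genes. In spleen 1 of 22 was higher and 3 were lower, 18.2 percent against 19.4 percent, so the share is near the background. The lower ones were Mob1a by 0.36 ± 0.06 (0.000404), Lats2 by 0.24 as above and Vgll3, a TEAD cofactor, by 0.29 ± 0.08 (0.0215), and Mob1b was higher by 0.32 ± 0.11 (0.0455). Yap1 differed by 0.07 in marrow, -0.20 in liver and -0.21 in spleen, and Wwtr1, which encodes TAZ, by 0.23, 0.03 and -0.04. None of these passed the threshold (adjusted p from 0.102 to 0.908). Within spleen replicates 1 to 4 none was called and within 5 to 8, 11 were, all lower. The stromal marker values of these spleens, given above, stand beside these counts too. The share of all genes called within 5 to 8 is not given, so the 11 are a description.

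Sparc, Postn and Smoc2 were the called genes among other CCN, thrombospondin and matricellular genes in marrow. Of 11 tested 3 were higher and 0 lower, 27.3 percent against 2.76 percent of all genes higher and 7.69 percent called either way. Sparc, a collagen-binding protein, was higher by 0.31 ± 0.07 (limma adjusted p = 0.0298), Postn (periostin) by 0.36 ± 0.09 (0.0439) and Smoc2, a calcium-binding matrix protein, by 0.59 ± 0.15 (0.0499). Leaving out any 1 of the 7 marrow arrays left 0 or 1 of these calls, and without the filter on dim genes 1 was left. The other CCN genes tested were not called: Ccn4 differed by 0.20 (adjusted p = 0.153) and Ccn5 by -0.05 (0.701) in marrow. The stromal marker values above were higher in the same hypoxia marrows. In liver 1 of 8 was higher, 12.5 percent against 11.1 percent of all genes: Smoc2 by 0.30 ± 0.09 (0.0473), which was lost without 11 of the 16 arrays taken one at a time. In spleen 0 of 11 were called (limma), also 0 at an unadjusted p under 0.05, against 19.4 percent of all genes.

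Among receptors of CCN proteins and thrombospondin 1, 0 of 16 tested were called in marrow (limma; 1 higher and 1 lower at an unadjusted p under 0.05), against 7.69 percent of all genes. In liver 1 of 15 was higher, 6.67 percent against 11.1 percent: Sdc4, syndecan 4, a heparan sulfate proteoglycan that binds CCN2, by 0.51 ± 0.10 (0.00198). It was not called with the mean of its probe sets (0.12, adjusted p = 0.724). In spleen 3 of 16 were higher, 18.8 percent against 19.4 percent of all genes called either way and 6.83 percent higher, so the share of calls is near the background. They were Itgam, the alpha M integrin chain of myeloid cells, by 0.94 ± 0.24 (0.0106), Sdc4 by 0.30 ± 0.09 (0.0233) and the scavenger receptor Lrp1 by 0.40 ± 0.13 (0.0352). Neutrophil markers ran from 8.69 to 9.98 in control and from 8.35 to 11.76 in hypoxia spleens, with 3 of 12 called higher (25 percent), or 2 to 10 with 1 array left out (10 without hypoxia spleen 2), and their part in the Itgam value was not tested. Sdc4 in spleen differed by 0.51 within replicates 1 to 4 (adjusted p = 0.0645) and 0.08 within 5 to 8 (0.419), and was not called with the replicate block (0.0727). Itgam was called in neither range alone (1.02 and 0.85, adjusted p = 0.117 and 0.0669). Lrp1 differed by 0.06 within replicates 5 to 8 (0.771) and lost its call without 10 of the 16 spleen arrays taken one at a time. Cd47 and Cd36, receptors of thrombospondin 1, differed by 0.32 and 0.06 in spleen and were not called (adjusted p = 0.0677 and 0.811).

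Genes of serum response factor and its cofactors, which share stimuli with YAP, were counted in the same way. In marrow 1 of 21 was higher: Filip1l, by 0.37 ± 0.06 (limma adjusted p = 0.0109), 4.76 percent against 7.69 percent of all genes. In liver 3 of 21 were higher and 1 lower, 19 percent against 11.1 percent, and with the replicate block 6 of 21, 28.6 percent against 18.7 percent. Actg1 (gamma actin) was higher by 0.80 ± 0.14 (0.000544), Mrtfb, a cofactor of serum response factor, by 0.48 ± 0.09 (0.00149) and Filip1l by 0.55 (0.0145), and Tgfb1i1, a focal adhesion protein, was lower by 0.30 ± 0.08 (0.0141). In spleen 1 of 23 was higher, Zyx (zyxin) by 0.40 ± 0.12 (0.0265), and 1 lower, Srf by 0.22 ± 0.07 (0.0352), 8.7 percent against 19.4 percent, and these 2 calls were lost without 5 and 8 of the 16 spleen arrays taken one at a time. Actin genes of smooth muscle (Acta2) and of all cells (Actb) were not called in any tissue.

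The immediate early genes, which also answer serum, had the largest share of calls among the 6 lists. In marrow 6 of 24 were higher and 2 lower, 33.3 percent against 7.69 percent of all genes. Dusp1, a phosphatase of MAP kinases, was higher by 2.39 ± 0.10 (limma adjusted p = 2.93e-05), Fos by 1.65 ± 0.11 (0.000252) and Egr1 by 1.53 ± 0.16 (0.00151); Fos and Egr1 are transcription factors. In liver 12 of 23 were higher and 1 lower, 56.5 percent against 11.1 percent, with Dusp1 by 3.01 ± 0.14 (2.03e-11), Maff by 1.86 ± 0.14 (2e-08) and Jun by 3.07 ± 0.24 (3.7e-08). In spleen 9 of 23 were higher and 4 lower, 56.5 percent against 19.4 percent, with Dusp1 by 2.36 ± 0.12 (2.11e-09), Fos by 2.16 ± 0.23 (4.89e-06) and Ier3 by 1.44 ± 0.16 (8.01e-06). The neutrophil values of hypoxia liver and spleen stand beside these counts too. Dusp1 rose in all 3 tissues. Ccn1, itself an immediate early gene, differed by 3.21 in marrow, 0.17 in liver and 0.30 in spleen on its brightest probe set. This contrast chose Ccn1, so its values are a description.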

How the data were processed

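RNA of 39 samples was hybridised to 1 Affymetrix array each. The deposited values are probe set intensities on a linear scale, from 5.776 to 43830.4; per the submitters' processing notes the authors used RMA and limma, with no versions given. The log2 of each intensity was taken with nothing added. Of 45101 probe sets, 64 were controls, 34945 carried 1 gene symbol, 932 several and 9160 none; only the first were named. Symbols were looked up in RefSeq names of GRCm38.p6, which held 34741 of them and changed 0.

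Each gene was represented by its brightest probe set per tissue; genes under the 30th percentile of these levels (log2 4.93 in liver, 5.6 in marrow, 5.38 in spleen) were left out, leaving 12735 per tissue. limma 3.58.1 (lmFit and eBayes, two-sided; R 4.3.3, and the package data.table, version 1.17.8) fitted each tissue on its own, hypoxia minus control, with Benjamini-Hochberg adjustment and a threshold of 0.05; interactions used 1 fit of all arrays in 6 groups. The limma step was tested on simulated data. Figures and promoter searches used Python 3.11.15, pandas 2.3.3 and matplotlib 3.10.9. Every ± beside a log2 difference of a called gene is its standard error. The number of arrays limits the precision.

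The members and lists were chosen with earlier results of these data known. Of 262 list genes 242 had a probe set. Text names every member, up to 3 called genes of smallest p per list and tissue, and the 5 genes most like Ccn1 and Thbs1; others named were chosen after their values were seen. Same-numbered arrays of both conditions were checked for shared deviations. In liver all 8 pairs correlated above 0, from 0.166 to 0.535, so a fit with the replicate number as a block is also given. Only 2 of the 8 control livers correlated best with the hypoxia liver of their own number. Same-numbered livers also share a replicate range, so these correlations do not show that single arrays are paired. The labels state no shared animal or batch. In marrow 2 of 3 were best with their own number, but the lowest pair was at -0.0267. In spleen pairs ran from -0.478 to 0.313. With the replicate block, liver calls rose from 1413 to 2385.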

Additional observations from a re-analysis of the deposited data

Results flagged for a closer look

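Of 50 groups of 4 or more arrays, over the members' probe sets, 4 held an array far from the rest by Dixon's test, which chance does in about 1 in 20 groups. Ankrd1 stood at 4.53 in hypoxia marrow 1 against 4.45 in the next array, on a probe set below the dim limit. A dim Ccn1 probe set stood at 3.87 in control liver 5 (next 4.26) and at 6.17 in control spleen 5 (next 4.98). The dimmer Thbs1 probe set stood at 4.35 in hypoxia liver 3 (next 4.05).

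Among named list genes the response to hypoxia differed between tissues for 10 genes by an interaction test (limma, adjusted p). Over all genes 2.76 percent differed for marrow minus liver, 9.84 percent for liver minus spleen and 0.272 percent for marrow minus spleen. The named genes were picked for their small p under hypoxia within a tissue of the same arrays. Their count is therefore not compared with these shares. For marrow minus liver the log2 differences of response were -0.84 for Actg1 (0.0065), 2.46 for Egr1 (0.00476), -2.15 for Gadd45b (9.93e-08), -2.18 for Ier3 (9.24e-05), -2.16 for Jun (0.000105), -1.6 for Maff (1.32e-05) and 1.43 for Nuak2 (0.00014). For liver minus spleen they were 0.85 for Actg1 (8.33e-05), 0.65 for Dusp1 (0.0158), 2.51 for Gadd45b (1.7e-12), 2.93 for Jun (3.35e-10), 1.48 for Maff (1.44e-07), -1.3 for Nuak2 (4.07e-06), -0.37 for Tgfb1i1 (0.0422) and -0.5 for Zyx (0.0244). None of the named genes passed for marrow minus spleen. The members have no such test, since their differences chose them.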

How the results depend on the processing

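Under alternatives other than leaving out an array, 85 of 99 member differences, 25 of 30 counts over all genes and 112 of 144 list counts moved by no more than the spread between replicates or 1.5 times. No member difference moved beyond that when an array was left out. The cause of the changes below was not tested. For Ccn1 in marrow the other probe sets gave 3.66, 1.1 and 1.32 and their mean 2.32; in liver a dim probe set gave -0.2. In spleen Ccn1 was -0.33 and -0.42 on the dim probe sets, -0.07 as a mean, 0.56 within replicates 1 to 4 and 0.04 within 5 to 8, and Amotl2 was 0.03 and -0.56. Ankrd1 in marrow was 0.1 on its other probe set and 0.05 as a mean.

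The count of liver calls was 2385 (748 higher and 1637 lower) with the replicate block, 2668 (812 and 1856) with the replicate range as a term and 781 (306 and 475) within replicates 1 to 4. Spleen calls were 482 (245 and 237) within replicates 1 to 4. Control liver ranges differed in 2283 genes (1244 and 1039) after quantile normalization. With the replicate block marrow had 940 calls and spleen 1960; outside liver the arrays share only a number. Of these counts over all genes the block moved only that of liver by over 1.5 times. The pathway list counts that it moved are given below. Some marker list counts moved too, such as monocyte and macrophage markers in liver, from 1 to 3. No named liver gene lost its call under the block.

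With the mean of probe sets, list calls were 1 for Hippo genes and 2 for receptors in liver, 0 for YAP targets and 1 for receptors in marrow, and 2 for Hippo genes and 5 for receptors in spleen; Lats2 in spleen turned to 0.02 (adjusted p = 0.814). Hippo calls in liver were 1 with quantile normalization, the replicate block, the range term and within replicates 1 to 4. Matricellular calls in liver were 0 without the dim filter, with median centring and within either range. Within liver replicates 1 to 4 receptors had 0 and SRF genes 1, and within 5 to 8 receptors had 3. In marrow, Hippo calls were 0 and matricellular calls 1 without the filter, and with the replicate block Hippo calls were 0 and receptors 2. In spleen, SRF calls were 1 with quantile normalization and receptors 1 with the block. Within spleen replicates 1 to 4, YAP targets, Hippo and SRF genes had 0, receptors 1 and immediate early genes 6. Within 5 to 8, YAP targets had 12, Hippo genes 11, matricellular genes 3 and SRF genes 5. The share of all genes called within 5 to 8 is not given beside these counts.

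Leaving out each array in turn, calls ran from 408 to 908 in marrow (447 without control 2, 650 without control 3, 408 without hypoxia 2 and 469 without hypoxia 3), from 2539 to 3760 for the control liver ranges (lowest without control 6 and 7) and from 0 to 1273 for the control spleen ranges (1273 without control 5). YAP target calls in marrow ran from 0 to 2. Hippo calls ran from 0 to 1 in marrow and liver (1 in liver without hypoxia 4). Matricellular calls ran from 0 to 1 in liver, in marrow and in spleen (1 without hypoxia 1). Receptor calls in marrow ran from 0 to 1 (1 without control 3), SRF calls in spleen from 1 to 3, and immediate early calls in marrow from 5 to 8 (5 without hypoxia 2 or 3). Alternatives for the interactions and for the 2 spleen relations were chosen after seeing the data: 29 of 30 interaction values kept their side of the threshold, Tgfb1i1 reaching an adjusted p of 0.0531 with median centring. Over all spleens the Thbs1 relation ran from 0.903 to 0.958 and the Ccn2 relation from 0.479 to 0.728 with an array left out. Within control spleens the Thbs1 relation ran from 0.621 to 0.795 with an array left out (exact permutation p from 0.0256 to 0.126) and was 0.492 (exact p = 0.219) on the dimmer probe set, and the Ccn2 relation ran from -0.372 to 0.825, reversed to -0.372 without control spleen 2.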
